A study of Mus musculus with 66 samples.

Results

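The immediate early response genes described here are 10 genes, Fos, Fosb, Jun, Junb, Egr1, Egr2, Ier2, Nr4a1, Arc and Dusp1, out of 24410 gene symbols in the deposited table. They were chosen by symbol, with no measured value in the rule but with earlier results of these data known. Each was found as 1 row. All 10 passed the filter on low values, a normalised read count of at least 10 in at least 2 libraries, as did 15714 genes in all. The study measured polyadenylated RNA in 66 libraries of ventral spinal cord progenitors made from mouse embryonic stem (ES) cells, which can give rise to any cell of the body. Cells were fixed in glyoxal, stained for markers inside the cell and sorted, with 10000 to 15000 cells per population. Values are normalised read counts, that is, read counts divided by a size factor of each library.

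Immediate early genes are transcribed within minutes of a stimulus, because the factors that switch them on, such as the serum response factor and CREB, are already in the cell and need only be phosphorylated. Growth factors acting through the ERK kinases, calcium entry and stress are the usual stimuli, and the messages are short-lived. Most of the proteins are transcription factors, so the group is commonly read as a record of recent signalling in neural cells.

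Every culture carried the same treatment. ES cells were plated with 10 ng/ml bFGF, given 5 µM CHIR99021 (an activator of Wnt signalling) from day 2, and moved to 100 nM retinoic acid (RA) with 10 nM of the Smoothened agonist SAG on day 3. RA was withdrawn at day 5 and SAG was kept. Libraries came from day 5 (D5, 17 libraries), D7 (18), D9 (19) and D11 (12), with 37 from wild-type (WT) and 29 from mutant (MUT) cells, and which gene is mutated is not stated in the labels. Cells were sorted as the p1, p2 or pM domain of the ventral neural tube and as negative (NFIAn) or positive (NFIAp) for NFIA, a factor of the later, gliogenic progenitors. All MUT libraries and all WT libraries of D5 and D7 were NFIAn, WT D11 was NFIAp, and WT D9 had both gates in p2 and pM and NFIAn alone in p1. The 26 groups held 1 library (MUT D9 p2), 2 libraries (10 groups) or 3 (15 groups).

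Recovered reads per library ranged from 20.29 to 30.83 M with 1 lower library (8.738 M, MUT D5 p2 replicate 2). The labels were checked against domain markers. The 4 pM markers (Olig2, Olig1, Nkx6-1 and Mnx1) summed at D11 to 4991 and 9273 in WT pM libraries and to 50.7 and 79.6 in WT p1 libraries, and to 1561 and 2668 against 26.4 and 63.8 in MUT. The p2 markers (Foxn4, Irx3, Nkx6-1 and Vsx1) averaged more in p2 than in p1 at D7, D9 and D11 but not at D5, where p1 held 2630 and p2 1583 in WT, and 2615 and 1790 in MUT. Irx3 made up most of these D5 sums, with means of 2605 in p1 and 1156 in p2 in WT, and 2602 and 1358 in MUT. Foxn4, Nkx6-1 and Vsx1 each averaged more in p2 than in p1 at D5 in both genotypes. Nkx6-1, for 1, stood at 16.6 in p1 and 225 in p2 in WT. Blood and immune markers summed to at most 5.75 in any library. The libraries of D7 replicate 3 and D9 replicates 2 and 3, 18 in all, had normalised totals of 26.59 to 40.23 M, while the remaining 48 had 17.85 to 25.5 M, and where leaving them out changed a member's call the value without them is given. Whether replicates were grown as separate cultures is not given in the sources used here, and the p-values then rest on a spread between libraries that may be technical. In sorted bulk RNA, fewer cells of a type and less RNA per cell cannot be told apart.

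The stretches before the start sites of 3 members that differed between D5 and D11 are shown, since a promoter is where the factors named above act. The sequences are RefSeq's on build GRCm38.p6, 5′ to 3′ in the direction of transcription, cut before the first exon base of any GENCODE M21 gene, and motif matches are in capitals. They lie at chr12:85473640-85473889 (Fos, plus strand), chr10:67537619-67537868 (Egr2, plus strand, 1 of several start sites) and chr17:26508520-26508722 (Dusp1, minus strand).
Fos: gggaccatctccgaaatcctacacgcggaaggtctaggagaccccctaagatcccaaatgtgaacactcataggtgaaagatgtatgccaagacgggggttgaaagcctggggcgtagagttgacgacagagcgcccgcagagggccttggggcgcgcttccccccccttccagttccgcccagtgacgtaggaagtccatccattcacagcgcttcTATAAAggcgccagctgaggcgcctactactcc
Egr2: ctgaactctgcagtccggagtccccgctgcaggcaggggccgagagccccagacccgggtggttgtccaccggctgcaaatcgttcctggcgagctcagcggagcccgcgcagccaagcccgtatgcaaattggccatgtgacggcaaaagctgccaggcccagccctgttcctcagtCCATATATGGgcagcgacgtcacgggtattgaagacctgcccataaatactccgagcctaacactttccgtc
Dusp1: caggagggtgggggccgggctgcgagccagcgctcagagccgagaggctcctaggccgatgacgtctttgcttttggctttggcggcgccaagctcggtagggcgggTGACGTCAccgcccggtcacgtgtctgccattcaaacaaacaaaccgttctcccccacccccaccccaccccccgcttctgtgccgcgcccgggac
Windows of 300 bases around the start sites of 7 members were searched on both strands for the CArG box (the letters bound by the serum response factor), for TGACGTCA (the full cAMP response element), for TGACTCA (the AP-1 site) and for TATAAA. Egr1, Ier2 and Arc were not searched. The windows began 250 bases before the start site, so sites further upstream were not covered. Partial forms of the motifs were not sought. In the window of Egr2 a CArG box ran from base −72 to −63 relative to the start site, and 1.63% of all 32807 such windows held one. Dusp1 held TGACGTCA from −143 to −136, against 1.79% of windows, and Fos held TATAAA from −33 to −28, against 13.6% of windows. Junb also held TATAAA, at bases 1 to 6 after its start site, and the window of another Egr2 start site held a different CArG box. TGACTCA, present in 5.21% of windows, was in none of the windows of these 7 members. These matches describe letters and show no binding.

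Per kilobase of exon, Ier2 was the most abundant member, with a median of 2684 normalised counts over the 66 libraries. Jun (838), Fos (505) and Dusp1 (404) followed. Junb and Egr1 lay at 126 each, Nr4a1 at 18.8, Fosb at 9.48, Arc at 6.25 and Egr2 at 0.983. Egr2 was listed at 0 in 12 libraries and Arc in 6. Exons of Jun, Junb and Dusp1 overlap those of a gene on the other strand (Junos, Prdx2 and Ergic1). Whether reads were counted by strand is not given in the sources used here, so reads from these pairs cannot be told apart.

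**Figure D1:**
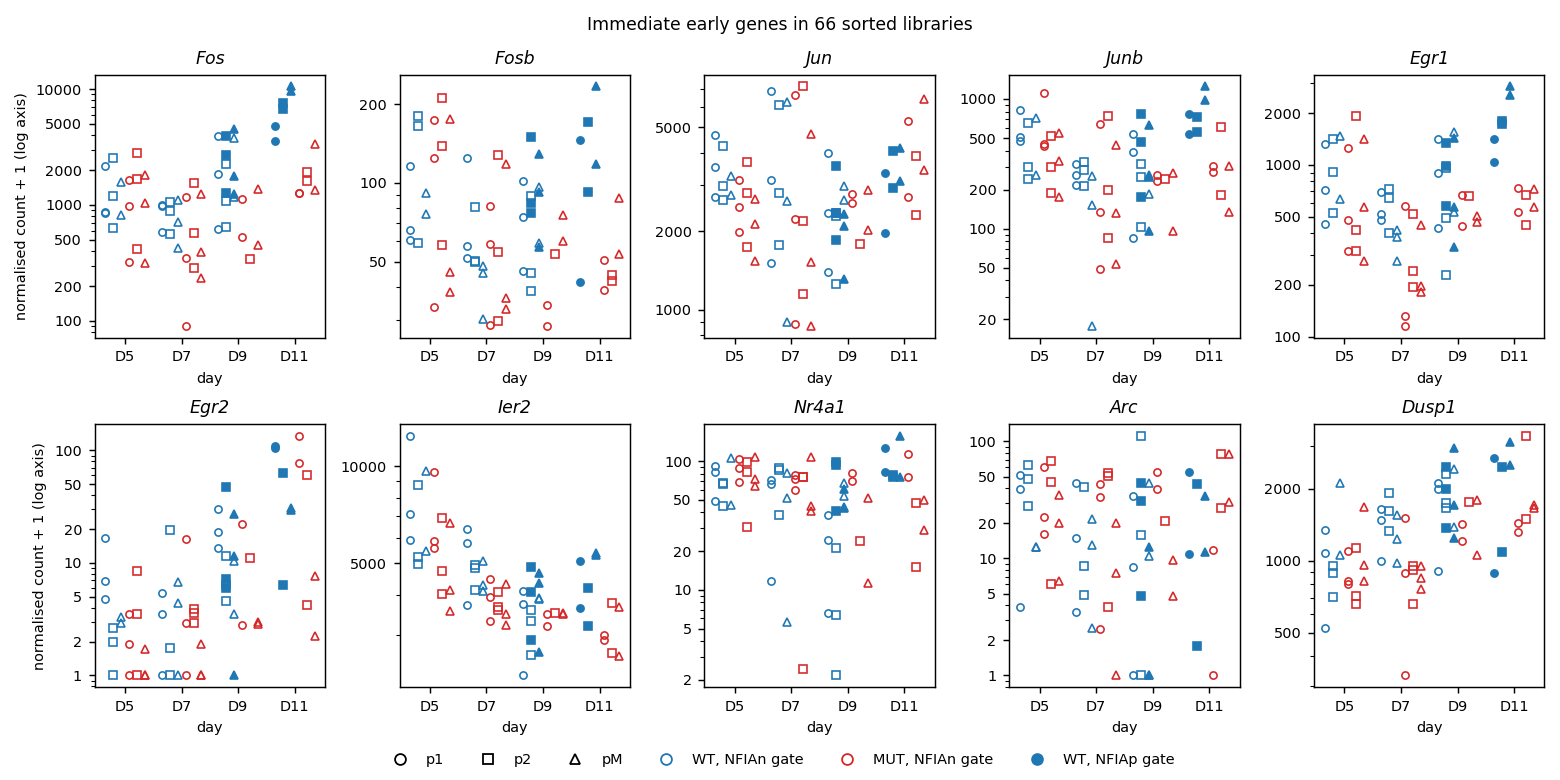
Each point is 1 library, with the normalised count plus 1 on a log axis against the day, the domain as the point's shape, the genotype as its colour and the NFIA gate as its fill. The highest Fos (10520) and Egr1 (2856) values are in WT pM libraries of D11, and the highest Ier2 value (12410) is at D5 in WT.

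In WT cells more members were called between D5 and D11 than in any shorter step, as was so for all genes. Fos, which pairs with Jun proteins to form the AP-1 factor, rose from D5 to D11 averaged over the domains. Egr1 and Egr2, zinc finger factors, and Dusp1, a phosphatase that switches off MAP kinases, were also called higher, and Ier2 was called lower. Calls use limma's moderated test on log2(normalised count + 1) with Benjamini-Hochberg adjustment over all tested genes and a threshold of 0.05.

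Fos in the 8 WT D5 libraries ranged from 627 to 2552 with a median of 1036. At D7 it ranged from 423 to 1102 (median 892, 9 libraries), and at D9 from 616 to 3900 in the NFIAn gate (median 1511, 8 libraries) and from 1250 to 4518 in the NFIAp gate (median 2238, 6 libraries). At D11 it stood at 3596 and 4788 in p1, 6717 and 7626 in p2, and 9582 and 10520 in pM. Every D11 library exceeded every WT library of D5 and D7, while the highest D9 libraries lay above the lower p1 library of D11. The D11 minus D5 log2 difference was 2.49 ± 0.52 (SE; 6 against 8 libraries; limma adjusted p = 7.68e-05). The fit counted all libraries as independent. Those of 1 genotype, day and replicate number moved together for Fos (correlation 0.91). The SE and p-value may therefore be too small. By domain, p1 gave 1.82 ± 0.87, p2 gave 2.53 ± 0.87 and pM gave 3.13 ± 0.95, and p1 alone did not pass (limma adjusted p = 0.116).

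The makeup of the sorted cells and the gate also changed over these days, from NFIAn at D5 to NFIAp at D11. From D5 to D11 in WT p1, the mean sum of the 9 neuron markers went from 1866 to 23910, that of the 6 astroglia markers from 1256 to 116100 and that of the 8 mesenchyme markers from 594 to 3096. In p2 these sums went from 3753 to 32950, 1770 to 130700 and 341 to 4115, and in pM from 11710 to 23320, 1764 to 112100 and 177 to 2307. Of the astroglia sums at D11, Fabp7 alone made up 103100 in p1, 114800 in p2 and 97110 in pM. The part of these markers in the changes of the members was not tested, and day and gate cannot be told apart in this comparison.

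Fosb, a relative of Fos, ranged from 57.8 to 180 in WT at D5 (median 82.8) and from 40.7 to 233 at D11 (median 131). The ranges overlapped, and the difference of 0.35 ± 0.42 did not pass the test. Junb, a Jun family partner of Fos, ranged from 241 to 816 at D5 (median 490), from 16.9 to 328 at D7 (median 256) and from 535 to 1246 at D11 (median 743). Its D11 minus D5 difference of 0.77 ± 0.55 did not pass, although every D11 library exceeded every D7 library. Jun, the main partner of Fos, did not pass either, with medians of 3110 at D5 and 3232 at D11 and a difference of −0.04 ± 0.40. It varied most at D7, from 893 to 6878.

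Egr1, an activator of growth-response genes, ranged from 449 to 1473 in WT at D5 (median 805) and from 274 to 725 at D7 (median 476). At D11 it stood at 1044 and 1407 in p1, 1718 and 1789 in p2, and 2560 and 2856 in pM. The p2 and pM libraries of D11 lay above all WT libraries of D5, and the p1 libraries lay within their range. The difference was 1.06 ± 0.42 (limma adjusted p = 0.0324). This call ended without any 1 of 8 of the 14 libraries compared (values 0.86 to 1.26, adjusted p up to 0.123). It also ended under TMM scaling (adjusted p = 0.0512), scaling to total reads (0.125) and edgeR (0.0766).

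Ier2, a nuclear protein of the early response, went the other way. In WT it ranged from 4959 to 12410 at D5 (median 6494), from 3717 to 6412 at D7 (median 4845) and from 3201 to 5387 at D11 (median 4633). The highest values were all at D5, with overlap from D7 onward. The D11 minus D5 difference was −0.69 ± 0.19 (limma adjusted p = 0.00207) and the D7 minus D5 difference was −0.58 ± 0.17 (limma adjusted p = 0.0117). Without WT D5 pM replicate 3 the latter was −0.44 (adjusted p = 0.0983). It also missed the threshold when only the compared groups were fitted (adjusted p = 0.0589). Under an estimated correlation of libraries with 1 number it missed it too (adjusted p = 0.0514).

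Dusp1 ranged from 522 to 2107 in WT at D5 (median 1000) and from 887 to 3122 at D11 (median 2478). The ranges overlapped, and the difference was 0.87 ± 0.28 (limma adjusted p = 0.00801). The call ended without WT D11 p1 replicate 3 (0.61, adjusted p = 0.0839), WT D11 p2 replicate 3 (0.68, adjusted p = 0.0593) or WT D5 pM replicate 2 (0.71, adjusted p = 0.0513). Nr4a1, an orphan nuclear receptor, and Arc, a protein of synapses, did not pass, with differences of 0.51 ± 0.59 and −0.46 ± 0.99.

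The 5 calls among 10 members in WT D11 minus D5 stood beside a background of 48% of all genes called, so the share of members called was near that of all genes. From D5 to D7, 1 member (Ier2) was called against 19.6% of all genes. The median log2 difference of the members was −0.64 against −0.02 over all tested genes, and 9 of 10 members had negative values. Because most members moved together within replicate sets, these signs are not separate evidence. The share of all genes with negative values was not computed. From D7 to the NFIAn gate of D9, no member was called by limma against 14.4% of genes. In that comparison 4 members had an unadjusted p under 0.05 (Fos, Egr2, Ier2 and Nr4a1), and 1 was called by edgeR and 3 by DESeq2. Without the libraries of high total, limma called Fos (1.76, adjusted p = 0.0449) and Nr4a1 (−1.51, adjusted p = 0.0201).

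Between D9 and D11 within the NFIAp gate, in p2 and pM, Fos and Egr1 were called higher, 2 of 10 members against 10.1% of genes. Fos ranged from 1250 to 4518 in the 6 D9 libraries and from 6717 to 10520 in the 4 D11 libraries, a log2 difference of 1.90 ± 0.61 (limma adjusted p = 0.036). Egr1 ranged from 331 to 1437 and from 1718 to 2856, a difference of 1.51 ± 0.49 (limma adjusted p = 0.0408). For neither gene did the libraries of the days overlap, and the share of all tested genes without overlap was not computed. All 10 members had positive values, with a median of 0.85 against 0.05 over all tested genes. Since most members tracked each other from library to library, these signs are not separate evidence. The share of all genes with positive values was not computed.

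These D9 to D11 calls were near the threshold. Replicates 2 and 3 of D9 are libraries of high total, and without them Fos differed by 1.00 (adjusted p = 0.513) and Egr1 by 0.65 (adjusted p = 0.692), with 1 library left per group at D9. Leaving out any 1 of 8 of the 10 libraries (all but replicate 1 of D9 in p2 and pM) also ended both calls, with Fos at 1.67 to 2.17 and Egr1 at 1.26 to 1.79 over all 10 leave-outs.

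In MUT cells, which were all in the NFIAn gate, Egr2 and Dusp1 rose and Ier2 fell from D5 to D11, and Fos and Egr1 did not pass the test. Fos ranged from 318 to 2800 at D5 (median 1035, 9 libraries), from 90.01 to 1560 at D7 (median 393), from 341 to 1376 at D9 (median 526, 5 libraries) and from 1262 to 3331 at D11 (median 1480, 6 libraries). The ranges of D5 and D11 overlapped, and the difference of 0.83 ± 0.50 did not pass. Egr1 ranged from 275 to 1919 at D5 (median 477), from 115 to 579 at D7 (median 196) and from 446 to 737 at D11 (median 615). Its D7 minus D5 difference was −1.29 ± 0.36 (limma adjusted p = 0.00583), and its D11 minus D5 difference was −0.0023 ± 0.40. Without the libraries of high total, the D7 value was −0.98 (adjusted p = 0.0771).

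Ier2 fell in MUT as in WT. It ranged from 3561 to 9578 at D5 (median 5576), from 3210 to 4466 at D7 (median 3671) and from 2579 to 3772 at D11 (median 2947). Of the D5 libraries, all but 1 lay above every D11 library. The D11 minus D5 difference was −0.83 ± 0.18 (limma adjusted p = 1.98e-04), and the D7 minus D5 difference was −0.53 ± 0.16 (limma adjusted p = 0.0123; −0.45 and adjusted p = 0.0962 without the libraries of high total). Dusp1 ranged from 656 to 1675 at D5 (median 824) and from 1321 to 3307 at D11 (median 1577), with a difference of 0.90 ± 0.27 (limma adjusted p = 0.00514). With values scaled to total reads this call ended in MUT (adjusted p = 0.0618) and in WT (adjusted p = 0.0969).

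Jun, Junb, Fosb, Nr4a1 and Arc did not pass from D5 to D11 in MUT. Their differences were 0.66 ± 0.39 for Jun, −0.53 ± 0.53 for Junb and −0.82 ± 0.40 for Fosb. For Nr4a1 and Arc they were −0.73 ± 0.57 and −0.23 ± 0.96. Jun at D11 reached 6416, the highest of its D11 libraries in either genotype.

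Among members, 3 were called in MUT D11 minus D5 (Egr2, Dusp1 and Ier2) against 46% of genes, and 2 in MUT D7 minus D5 (Egr1 and Ier2, both lower) against 30.8%. No member was called by limma in MUT D9 minus D7 (9.71% of genes; 2 members, Egr1 and Dusp1, at an unadjusted p under 0.05) or in MUT D11 minus D9 (9.19%; 1 member, Fos). Neither edgeR nor DESeq2 called one there. WT and MUT time courses share no libraries, while comparisons within a genotype share those of the common day.

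**Figure D2:**
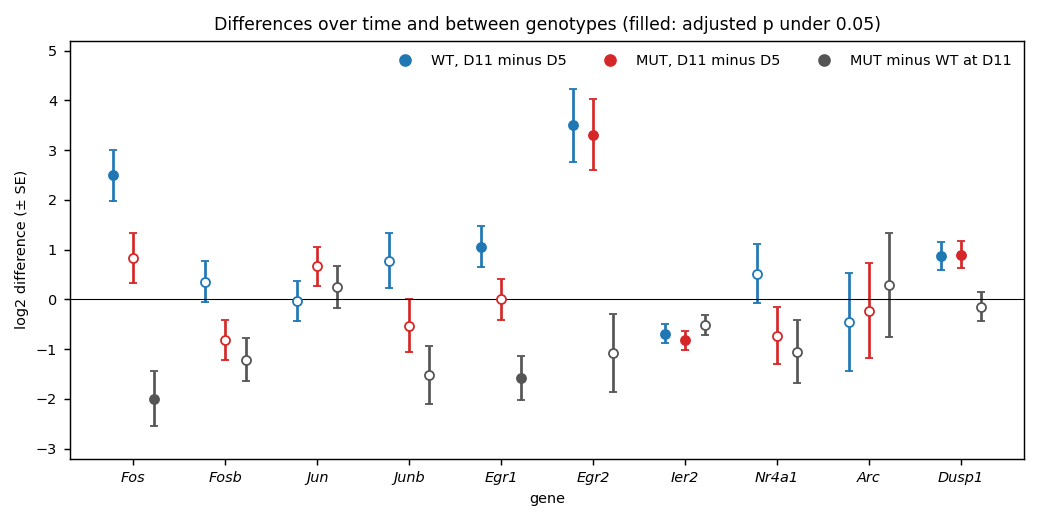
Log2 differences ± SE of the 10 members for WT D11 minus D5, MUT D11 minus D5 and MUT minus WT at D11, with filled points past an adjusted p of 0.05. Egr2, Dusp1 and Ier2 were called in the same direction over time in both genotypes. Fos had positive values over time in both (2.49 in WT and 0.83 in MUT) and was called in WT alone. At D11, Fos and Egr1 were called lower in MUT than in WT.

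Fos and Egr1 were the members that differed between genotypes at D11. The 6 MUT libraries held 1262 to 3331 Fos counts and the 6 WT libraries 3596 to 10520, so the groups did not overlap. The MUT minus WT log2 difference was −2.00 ± 0.55 (limma adjusted p = 0.0233), with domain values of −1.71 (p1), −2.03 (p2) and −2.25 (pM), each ± 0.95. Egr1 stood at 446 to 737 in MUT and 1044 to 2856 in WT, again without overlap, with a difference of −1.57 ± 0.44 (limma adjusted p = 0.0284). The share of all tested genes without overlap was not computed here either.

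The gate went with the genotype here, since MUT D11 cells were NFIAn and WT D11 cells NFIAp, so genotype and gate cannot be told apart. The 6 astroglia markers (Slc1a3, Fabp7, Aldh1l1, Aqp4, Gfap and Sox9) summed to 68650 to 184800 in WT and 24880 to 81400 in MUT at D11, and in both genotypes replicate 2 was above replicate 3 in every domain. Fabp7 made up most of these sums, with means of 103100, 114800 and 97110 in WT p1, p2 and pM and 38040, 41600 and 28090 in MUT. Slc1a3 and Aldh1l1 also averaged less in MUT in every domain. Sox9 averaged more in MUT than in WT in p2 (6318 and 5655) and pM (6280 and 5697), and less in p1 (4958 and 6530). Aqp4, a marker of mature astrocytes, was listed at 0 in all MUT groups of D11. In WT it was low too, with means of 7.78, 24.7 and 12.3 in p1, p2 and pM. The 9 neuron markers summed to 19090 to 37890 in WT and 26020 to 32860 in MUT. The part of these differences in the Fos and Egr1 results was not tested.

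Of the other members at D11, Fosb (medians 46.6 in MUT and 131 in WT), Junb (286 and 743), Ier2 (2947 and 4633) and Nr4a1 (47.9 and 79.5) were lower in MUT by value without passing the test, and all 4 ranges overlapped. Their log2 differences were −1.21 ± 0.44, −1.51 ± 0.58, −0.52 ± 0.20 and −1.05 ± 0.63. Egr2 (medians 33.3 and 45.8) and Dusp1 (1577 and 2478) did not pass either, at −1.08 ± 0.78 and −0.15 ± 0.29. Jun and Arc had positive values, 0.24 ± 0.43 and 0.28 ± 1.05. By limma 5 members had an unadjusted p under 0.05 (Fos, Egr1, Fosb, Junb and Ier2). DESeq2 called 3 (Fos, Egr1 and Fosb) and edgeR 1. Without the libraries of high total, none of which is of D11, Junb was called as well (adjusted p = 0.0189). The 2 calls of 10 stood beside 4.14% of all genes, and the members' median was −1.06 against −0.00411 over all tested genes. Under an estimated correlation among libraries that share genotype, day and replicate number, neither was called (adjusted p = 0.0873 for Fos and 0.103 for Egr1).

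Single libraries also decided these calls. The Fos call ended without any 1 of 5 of the 12 libraries (MUT p1 replicate 3, MUT pM replicate 2, and replicate 2 of WT p1, p2 and pM), with values of −2.21 to −1.78. The Egr1 call ended without any 1 of 8, with values of −1.67 to −1.48 (all but MUT p2 replicate 3, MUT pM replicate 3, and replicate 3 of WT p1 and p2).

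Earlier genotype comparisons called no member in the fit without a replicate block. At D5 0.458% of genes were called, at D7 2.03%, and at D9 within the NFIAn gate 0.7%. By limma 1 member had an unadjusted p under 0.05 at D5 (Ier2), 3 at D7 (Egr1, Ier2 and Dusp1) and 1 at D9 (Fos), all lower in MUT, and neither edgeR nor DESeq2 called any. With the replicate number as a block within each day, limma called Ier2 at D5 (adjusted p = 0.0146), 5 members at D7 (Fos, Jun, Egr1, Ier2 and Dusp1) and Fos at D9 (adjusted p = 4.77e-05), all lower in MUT. Calls over all 15714 genes also grew under this block. They went from 72 to 798 at D5, from 319 to 2275 at D7 and from 110 to 784 at D9. The replicate numbers are not stated to mark a shared batch or day. The D9 comparison shares the gate: Fos stood at 341 to 1376 in 5 MUT libraries and 616 to 3900 in 8 WT libraries, which overlapped, with a log2 difference of −1.43 ± 0.56 (limma adjusted p = 0.335).

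The difference between genotypes in the change over time was also tested directly. For D11 minus D5 it was −1.66 ± 0.72 for Fos (limma adjusted p = 0.451) and −1.06 ± 0.58 for Egr1 (limma adjusted p = 0.64). No member was called, against 0.77% of genes, and 2 (Fos and Fosb) had an unadjusted p under 0.05. For D7 minus D5 and for D9 NFIAn minus D7 no member was called and none had an unadjusted p under 0.05, against 0.00636% of genes in each. Neither edgeR nor DESeq2 called a member in any of the 3. A difference between the genotypes' time courses was therefore not shown for any member.

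The NFIA gate itself was compared within WT D9, in p2 and pM. No member was called, against 0.204% of genes, with 1 (Nr4a1) at an unadjusted p under 0.05 and none by edgeR or DESeq2. Nr4a1 stood at 1.16 to 67.1 in the 5 NFIAn libraries of p2 and pM and at 40.1 to 96.9 in the 6 NFIAp libraries, which overlapped, with a log2 difference of 1.56 ± 0.67 (limma adjusted p = 0.479). The lowest values were in p2 NFIAn, with a mean of 8.86 ± 9.93 (SD, n = 3). Fos differed between the gates by 0.53 ± 0.58 and Egr1 by 0.23 ± 0.47. Libraries of 1 genotype, day and replicate number moved together for most members, so SEs between gates may be too large. Under an estimated correlation of such libraries, calls over all genes went from 32 to 454, still without a member. The absence of member calls does not show equal levels.

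The domains were also compared averaged over days. No member was called by limma in WT p2 minus p1 (1.83% of genes), WT pM minus p2 (4.71%), MUT p2 minus p1 (0.598%) or MUT pM minus p2 (3.26%). At an unadjusted p under 0.05 the counts were 1 (Egr2), 0, 1 (Nr4a1) and 1 (Egr2). DESeq2 called 1 member in the last of these and edgeR none in any. By value, Fos at D11 was ordered p1, p2, pM in the means of both genotypes (WT 4192, 7171 and 10050; MUT 1264, 1762 and 2338). The steps at D11 were 0.79 ± 0.95 and 0.49 ± 0.95 in WT and 0.47 ± 0.95 and 0.27 ± 0.95 in MUT, each smaller than its SE.

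By value, Egr2 was highest in p1 at D11, although the main fit called it in no comparison of domains averaged over days. It encodes a zinc finger factor of hindbrain segments and of myelinating Schwann cells. At D5 it was at most 15.8 in any library, and 46 of the 66 libraries held under 10. At D11 p1 held 103 and 108 in WT and 76.8 and 133 in MUT, above every other library of the series. The p2 domain held 5.35 and 62.0 in WT and 3.27 and 60.0 in MUT, and pM held 28.3 and 29.6 in WT and 1.22 and 6.66 in MUT.

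From D5 to D11 Egr2 rose in both genotypes, by 3.496 ± 0.74 in WT (limma adjusted p = 9.81e-05) and 3.31 ± 0.71 in MUT (limma adjusted p = 1.41e-04), and no alternative or left-out library ended either call. At D11 p2 minus p1 was −2.41 ± 1.35 in WT and −2.66 ± 1.35 in MUT, with 2 libraries per group. Averaged over days it was −1.47 in WT (limma adjusted p = 0.24) and −0.38 in MUT (limma adjusted p = 0.979), and neither was called. Egr2 levels are low, so the pseudocount of 1 understates the folds.

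Summed markers of neural crest and Schwann cells were highest in the same 4 p1 libraries of D11 as Egr2. The 4 markers used (Foxd3, Tfap2a, Tfap2b and Sox10) summed to 1412 and 1444 in WT p1 and 915 and 1672 in MUT p1 at D11, and to at most 664 in every other library. In p2 the libraries with the higher Egr2 also had the higher sums, 544 against 241 in WT and 623 against 191 in MUT. Sox10, the defining factor of the lineage, averaged 789 in WT p1 and 913 in MUT p1 at D11 and 6.56 in WT p1 at D5. Foxd3, an early factor of the neural crest, averaged 194 and 197 in the same p1 groups at D11. It was already at 198 (WT) and 181 (MUT) in p1 at D9, where Egr2 averaged 19.8 and 11.6. Foxd3 thus did not rise with Egr2 from D9 to D11 in WT p1 and changed little in MUT p1. Tfap2b in MUT p1 averaged 163 at D7, 65.19 at D9 and 154 at D11. In WT p1 Tfap2b averaged 148.7 at D7, 110.1 at D9 and 383.8 at D11. Tfap2a and Sox10 also averaged more at D11 than at D9 in p1 of both genotypes. The sum of the 4 markers reached 642 in WT p1 at D7, where Egr2 was at most 4.39. Mesenchyme markers summed to 2866 to 3325 in WT p1 and 3124 to 3437 in MUT p1 at D11, against 511 to 715 in WT p1 at D5, and their highest sum was in WT p2 replicate 3 (6112). The part of the neural crest, Schwann and mesenchyme markers in the Egr2 result was not tested.

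**Figure D3:**
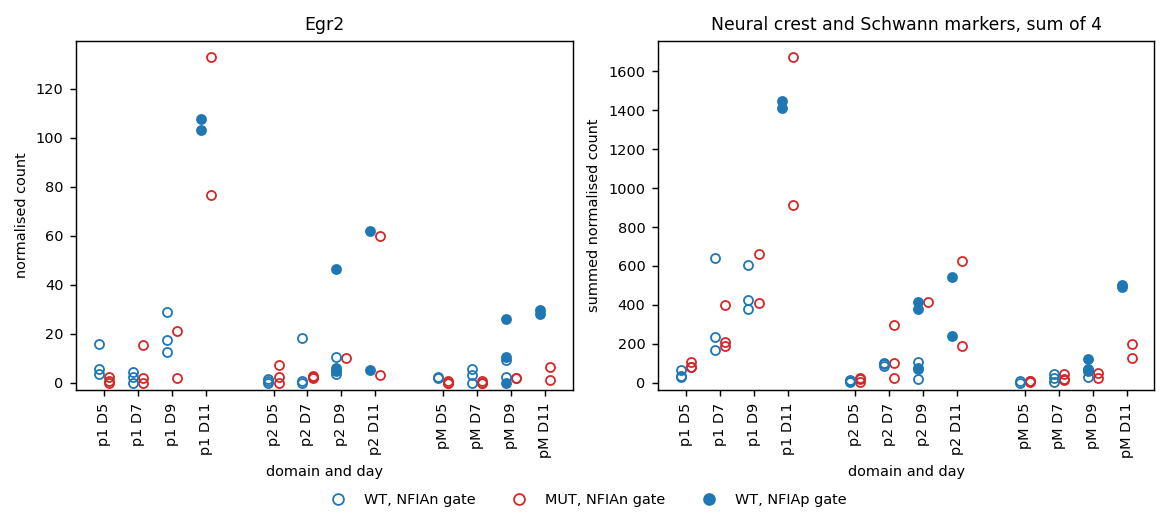
Each point is 1 library, with normalised counts of Egr2 on the left and the summed normalised counts of the 4 neural crest and Schwann markers on the right, by domain and day, coloured by genotype and filled for the NFIAp gate. Both are highest in the 4 p1 libraries of D11, where Egr2 is at least 76.8.

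Libraries that share a genotype, a day and a replicate number moved together. These are the domains and gates sorted under 1 number. After subtracting group means, the correlation among such libraries was 0.91 for Fos, 0.91 for Jun, 0.90 for Egr1, 0.84 for Ier2 and 0.74 for Junb, against a median of 0.34 over all tested genes. It was 0.60 for Fosb, 0.53 for Dusp1, 0.36 for Egr2, 0.28 for Nr4a1 and −0.06 for Arc. These are descriptions of 21 sets of libraries, with no test. The main fit counted the libraries of a set as independent. SEs and p-values of differences between days or genotypes may therefore be too small for Fos, Jun, Egr1, Ier2 and Junb. For differences between domains or gates, which lie within sets, they may be too large. The estimated correlation used as an alternative was 1 value for all genes, 0.375, which lies below the values of these members.

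At D5, replicate 3 lay above the group means for 10 of 10 members in both genotypes. MUT Fos was 1636 to 2800 in replicate 3, 977 to 1665 in replicate 2 and 318 to 415 in replicate 1. WT Egr1 was 1322 to 1473 in replicate 3 and 449 to 903 in the others. The members' median deviation was 0.46 in WT and 0.51 in MUT, while the medians over all genes were 0.00203 and -0.00392.

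At D7 replicate 1 was high and replicate 3 low. Jun stood at 6083 to 6878 in WT replicate 1, 2609 to 3136 in replicate 2 and 893 to 1763 in replicate 3. In MUT it stood at 4716 to 7170, 1525 to 2226 and 867 to 1143. Replicate 3 of D7, a set of high normalised total, had 1 member above its group mean in WT and 0 in MUT, with median deviations of −0.52 and −0.88, while the medians over all genes were −0.10 and −0.13.

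At D9 in WT, replicate 1 had 9 members above the group mean and replicate 2, also of high total, had 0. Fos was 2259 to 4518 in replicate 1 and 616 to 1270 in replicate 2. Replicate 3, whose total is high too, had 5. At D11 the sets of WT had 5 and 5, and those of MUT had 0 (replicate 2) and 10 (replicate 3). These spreads within a day were as large as many of the differences between days: residual SDs on the log2 scale were 1.02 for Fos, 1.08 for Junb and 0.82 for Egr1, against a median of 0.57 over all tested genes. Ier2 was steadier (0.35) and Arc varied most (1.90).

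**Figure D4:**
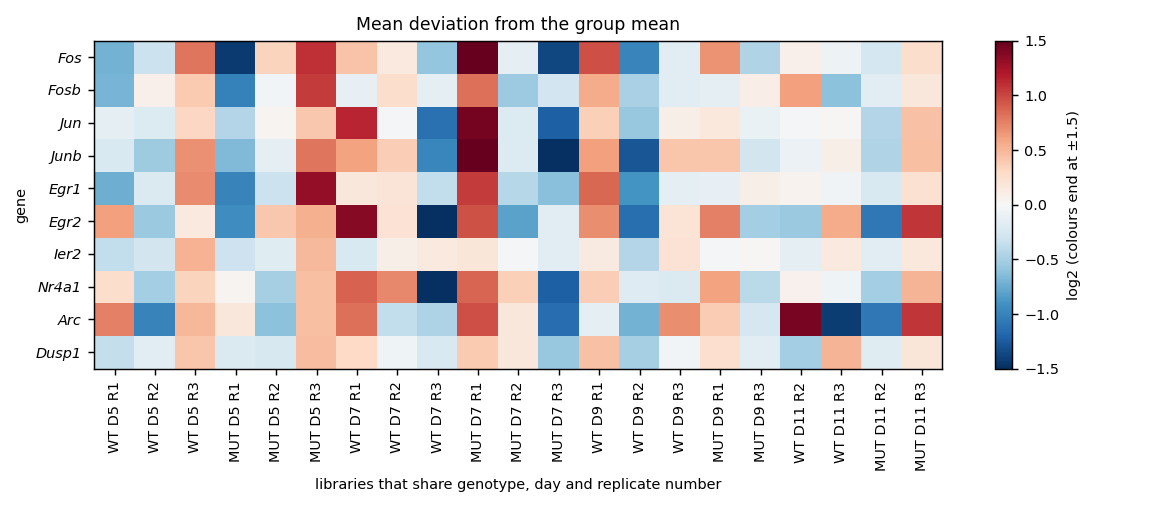
Colours give the mean deviation of each member from its group mean (log2) in the 21 sets of libraries that share genotype, day and replicate number. Replicate 3 of D5 is red for all 10 members in both genotypes, and replicate 3 of D7 in MUT is blue for all 10.

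The members also tracked each other from library to library. After subtracting group means, Pearson's r over the 66 libraries was 0.87 for Fos with Egr1, 0.83 for Fos with Junb, 0.82 for Jun with Junb and 0.79 for Fos with Jun. Arc with Dusp1 gave −0.03. Libraries of 1 genotype, day and number are not independent by these values, so the correlations are descriptions. Of the 10736 tested genes with a mean of at least 50, the 3 nearest to the mean of the members by the same measure were Cyr61 (0.84), Ppp1r15a (0.80) and Ptprs (0.80). Cyr61 is itself an early response gene, and Ppp1r15a encodes a phosphatase subunit of the stress response.

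Over all 66 libraries without subtraction, the gene most like Fos was Galnt2 (r = 0.81), the one most like Jun was Cyr61 (0.76) and the one most like Junb was Adam22 (0.76). For Egr1 it was Smad1 (0.70), for Egr2 Ednrb (0.75), an endothelin receptor, and for Ier2 Ash2l (0.77). Dusp1 was nearest to Podxl2 (0.83), Nr4a1 to Ahcyl2 (0.72), Fosb to Msl1 (0.63) and Arc to Ap5z1 (0.48).

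Other genes of the pathway were read from lists. Of 9 partners and relatives of AP-1, 1 was called higher and 4 lower in WT D11 minus D5, where 48% of all genes were called, with a median of −0.56 against 0.04 over all genes. Atf3, a stress-induced repressor, fell by 4.48 ± 0.45 in WT and fell by 4.32 ± 0.44 in MUT (limma adjusted p = 1.3e-11 and 1.62e-11). Jund, a Jun family member that does not need induction, rose by 1.35 ± 0.46 in WT and 1.11 ± 0.45 in MUT (limma adjusted p = 0.0133 and 0.0375). In MUT 1 of 9 was higher and 3 lower, where 46% of all genes were called.

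Of 31 other immediate early genes, 10 were called higher and 6 lower from D5 to D11 in WT (48% of all genes called), with 7 and 8 in MUT (46%), shares near those of all genes. Bhlhe40, a clock-related repressor, rose by 4.46 ± 0.58 and 4.48 ± 0.56 in WT and MUT, and Nr4a3, a relative of Nr4a1, by 3.71 ± 0.66 and 3.53 ± 0.64. Btg2, an antiproliferative gene of progenitors, rose by 2.54 ± 0.19 and 1.99 ± 0.19. Ctgf, a target of YAP, fell by 3.44 ± 0.63 in WT and fell by 4.15 ± 0.61 in MUT. Srf, which encodes the serum response factor, fell by 0.85 ± 0.20 in WT and fell by 1.14 ± 0.19 in MUT. From D9 to D11 in the WT NFIAp gate 4 of the 31 were higher (Egr4, Myc, Bhlhe40 and Nfkbia) and 1 lower (Plk3), where 10.1% of all genes were called. At D11 between genotypes 1 was called, Btg2, lower in MUT by −0.77 ± 0.20 (limma adjusted p = 0.0166).

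Of 13 genes of ERK feedback and FGF response, 6 fell and 1 rose from D5 to D11 in WT (48% of all genes called), and 7 fell and 1 rose in MUT (46%). Etv4, a transcription factor induced by FGF, fell by 3.94 ± 0.39 in WT and fell by 3.85 ± 0.37 in MUT. Spry4, an inhibitor of the pathway, fell by 3.37 ± 0.80 in WT and fell by 2.38 ± 0.78 in MUT. Dusp6, a phosphatase specific for ERK, fell by 1.60 ± 0.23 in WT and fell by 1.61 ± 0.23 in MUT. Spry2 rose in WT by 1.65 ± 0.50 and Phlda1 in MUT by 0.61 ± 0.21. No gene of this list was called between the genotypes at D11.

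Of 15 upstream kinases and transcription factors, 2 rose and 4 fell in WT and 5 rose and 4 fell in MUT, over the same days and backgrounds (48% and 46%). Rps6ka3, a kinase below ERK, fell by 1.61 ± 0.19 in WT, and Elk3, a partner of the serum response factor, rose by 2.21 ± 0.37. Of 10 heat shock genes 3 rose and 2 fell in WT, and 0 rose and 4 fell in MUT, against the same 48% and 46%. All 8 genes of the integrated stress response fell from D7 to D9 in both genotypes, with median differences of −1.79 in WT (NFIAn) and −1.89 in MUT, against 14.4% and 9.71% of all genes called in either direction. At that step limma called no member in either genotype, with the other tools' counts as given above. None of the 10 heat shock or 8 stress response genes was called between genotypes at D11.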

How the data were processed

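Polyadenylated RNA was measured in 66 sorted libraries, and the authors deposited 1 table of normalised counts (signal). Per the submitters' processing notes, mm10 and DESeq2 were used, without versions. The aligner, the counter and its strand setting are not given in the sources used here. Each value divided by the value of 1 read of its library gave a whole number (within 0.01) for 100% of values, so reads could be recovered.

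The main fit used limma 3.58.1 (R 4.3.3) with a mean-variance trend on log2(normalised count + 1), 1 mean for each of 26 groups over all 66 libraries, and a filter of 10 normalised counts in at least 2 libraries. Comparisons weighted domains equally, and p-values were adjusted (Benjamini-Hochberg) over 15714 genes. The single library of MUT D9 p2 took its spread from the pooled estimate. No replicate pair was identical (55 pairs, 0 identical). The deviations of same-numbered libraries correlated above 0.1 in every pair only for MUT D9 minus D7 (4 pairs, lowest r 0.179), where a replicate block left the members called at 0. Alternatives were a pseudocount of 8, no filter, other scalings, other models, edgeR 4.0.16 and DESeq2 1.42.0 on recovered reads, and leaving out libraries. The fit was also run on simulated counts with known changes, drawn independently for each library, and no outcome of it is given here. Figures were drawn with matplotlib 3.10.9.

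The members and lists were chosen with earlier results of these data known. Named genes are the 10 members, the called genes of the lists with their known roles, and the genes nearest to a member by Pearson's r. Examples among list genes were chosen after their values were seen. Some markers of the neural crest and Schwann list are not reported here, and its sums leave them out.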

Additional observations from a re-analysis of the deposited data

How the results depend on the processing

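No called result changed direction. Of 364 settings applied to the 15 called member results, 299 kept the call and 65 ended it, and 5 results stayed called in every setting; among 185 results not called, 60 settings gave a call and 446 changed the sign of the value without a call (for example Arc in MUT D11 minus D5, -0.82 to 0.37). Scaling to total reads and its values were added after seeing the data, and it moved the median of all genes by 0.268 in WT D11 minus D9 NFIAp, -0.3 in MUT D7 minus D5, 0.248 in MUT D11 minus D9 and 0.121 in MUT minus WT D11. The causes of the changes below were not tested.

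Members called changed by more than 1.5 times as follows. With compared groups only, WT D7 minus D5 went from 1 to 0, WT D11 minus D9 NFIAp from 2 to 1 and MUT D7 minus D5 from 2 to 1. Under the shared culture correlation (0.375), WT D7 minus D5 went from 1 to 0, MUT minus WT D11 from 2 to 0, and WT p2 minus p1 and MUT pM minus p2 from 0 to 1. Under DESeq2, WT D7 minus D5 had 2, WT D9 NFIAn minus D7 had 3, WT D11 minus D9 NFIAp had 1 and MUT pM minus p2 had 1. All genes called in these were 3615, 2617, 1711 and 744. Under edgeR, WT D9 NFIAn minus D7 had 1, WT D11 minus D9 NFIAp had 0 and MUT minus WT D11 had 1, beside 2291, 1408 and 500 genes. Smaller changes were 3 in MUT minus WT D11 under DESeq2, 4 in MUT D11 minus D5 under DESeq2, edgeR and a replicate block, and 4 in WT D11 minus D5 under edgeR and TMM scaling. TMM scaling gave WT D9 NFIAn minus D7 1, and no filter gave WT D11 minus D9 NFIAp 1. Scaling to total reads gave WT D11 minus D9 NFIAp 0, WT D11 minus D5 3 and MUT minus WT D11 0. Without libraries of high total, WT D9 NFIAn minus D7 had 2, WT D11 minus D9 NFIAp 0 and MUT D7 minus D5 0.

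Libraries of other comparisons share only a replicate number. With a replicate block, WT D7 minus D5 had 2 members called, and WT D9 NFIAn minus D7, MUT D11 minus D9 and MUT minus WT D7 had 1 each. With a replicate block within day, MUT minus WT had 1 at D5, 5 at D7, 1 at D9 NFIAn and 5 at D11, and MUT pM minus p2 had 1. Over all genes these 5 comparisons had 798, 2275, 784, 3180 and 1803 called under that block.

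Leaving out 1 library at a time, members called ranged from 0 to 2 in WT D7 minus D5, 0 to 1 in WT D9 NFIAn minus D7, 0 to 2 in WT D11 minus D9 NFIAp, 3 to 5 in WT D11 minus D5, 2 to 5 in MUT D7 minus D5, 0 to 2 in MUT D9 minus D7, 3 to 4 in MUT D11 minus D5, 0 to 1 in MUT minus WT D7 and 0 to 2 in MUT minus WT D11, and stayed at 0 in the rest. Where a group was left with 1 library, it was assumed to vary like the others.

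Over all genes, MUT minus WT D11 had 650 called, against 129 with compared groups only, 107 with the culture correlation, 3180 with a replicate block within day and 1529 without libraries of high total. WT D11 minus D9 NFIAp had 1593 against 2621 with a replicate block, 842 with the culture correlation and 714 without libraries of high total. MUT D7 minus D5 had 4837 against 2551 with the culture correlation and 3124 without libraries of high total. WT D7 minus D5 had 3073 against 1333 with the culture correlation. Arc and Egr2, at 0 in 6 and 12 libraries, are limited by depth.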
